A study of Mus musculus with 18 samples.

Results

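Genes for enzymes and a transporter that make the lipids of the skin barrier were followed across 18 mouse skin arrays: Alox12b, Aloxe3, Abca12, Elovl4, Ugcg and Smpd1. These 6 genes were taken by name, not by a cut on their values, out of the 18193 genes named on the array. Earlier results of these data were known when they were chosen. Every probe set annotated with 1 of these symbols was used, which gave 11 of the 45037 probe sets. Alox12b, Aloxe3 and Abca12 had 1 probe set, Elovl4 and Smpd1 had 2, and Ugcg had 4. All 11 passed the filter on low values, a mean log2 signal above 3.15 over the 18 arrays, and no member was dropped. Values are log2 MAS5 signals, a summary of each probe set's hybridisation that can be compared between arrays but not between probe sets.

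The study compared the epidermis, dermis and whole skin of K14NICDER transgenic mice with the same tissues of wild-type mice, with 3 arrays in each of the 6 groups. K14NICDER mice carry the intracellular domain of Notch joined to a hormone-binding domain that 4-hydroxytamoxifen (4OHT) activates. The keratin 14 promoter drives it, which is active in basal keratinocytes of the epidermis and the hair follicle. All mice of both genotypes were females on a C57Bl6xCBA F1 background, 7 weeks old when treatment began, and all received 4OHT for 14 days. Transgenic mice without 4OHT were not analysed here. The labels do not say how many animals gave each sample or whether tissues came from the same animals, and p-values therefore cover no more than the spread among these arrays, which may be technical.

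The outer skin keeps water in with sheets of ceramides, cholesterol and free fatty acids between dead keratinocytes. Keratinocytes of the granular layer make very long ceramides, add glucose to them, pack them into lamellar granules and release them, and enzymes outside the cell then remove the glucose. Part of the linoleate on these ceramides is oxidised by lipoxygenases so that the lipid can be fixed to the protein shell of the dead cell. Elovl4 lengthens the fatty acids, Ugcg adds the glucose, Abca12 loads the granules, Alox12b and Aloxe3 carry out consecutive steps of the oxidation, and Smpd1 makes ceramide from sphingomyelin. In humans, loss of ABCA12 causes harlequin ichthyosis, and loss of ALOX12B, ALOXE3 or ELOVL4 causes other ichthyoses.

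RefSeq promoter sequences (build GRCm38.p6) were at hand for 5 of the 6 genes. The stretches just before the start sites of Alox12b, Ugcg and Elovl4 are shown because Alox12b and Ugcg differed between the skin layers and Elovl4 had no detectable difference. Capitals mark matches to the motifs searched, on the gene's own strand or its complement.
Alox12b, chr11:69156822-69157071, plus strand: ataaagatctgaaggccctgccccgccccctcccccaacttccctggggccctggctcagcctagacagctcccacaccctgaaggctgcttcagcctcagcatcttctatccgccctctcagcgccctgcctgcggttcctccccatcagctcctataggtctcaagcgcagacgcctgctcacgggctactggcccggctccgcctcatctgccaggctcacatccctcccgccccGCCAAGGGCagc
Ugcg, chr4:59189300-59189506, plus strand: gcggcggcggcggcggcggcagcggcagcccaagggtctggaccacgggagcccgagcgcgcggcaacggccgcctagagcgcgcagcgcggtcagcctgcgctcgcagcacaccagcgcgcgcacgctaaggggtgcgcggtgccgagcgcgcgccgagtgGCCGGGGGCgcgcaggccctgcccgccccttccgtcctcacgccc
Elovl4, chr9:83806306-83806555, minus strand: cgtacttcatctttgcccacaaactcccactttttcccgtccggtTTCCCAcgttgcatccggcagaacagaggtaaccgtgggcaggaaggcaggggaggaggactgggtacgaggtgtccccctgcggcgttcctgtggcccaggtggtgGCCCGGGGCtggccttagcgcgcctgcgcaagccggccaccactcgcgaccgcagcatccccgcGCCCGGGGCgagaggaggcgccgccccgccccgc

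The 250 bases before each of 32851 RefSeq start sites were searched on both strands for TGGGAA, the core bound by the Notch partner RBPJ, for TGANTCA (AP-1), GCCNNNGGC (AP-2) and TATAAA (the TATA box). TGGGAA was in 21.6% of all these windows and in 1 of the 5 members, Elovl4, on the complementary strand at bases -205 to -200. GCCNNNGGC was in 13.7% of all windows and in 3 of the 5 members: at -12 to -4 in Alox12b, at -88 to -80 in Ugcg, and at -98 to -90 and -34 to -26 in Elovl4. TGANTCA (6.75% of windows) and TATAAA (12.4%) were in 0 of the 5. These are matches of letters in a short window and nothing more. The Ugcg window was the richest of the 5 in G and C, at 80.4%, against 66% in Alox12b, 69.6% in Elovl4, 64.8% in Smpd1, 53.2% in Abca12 and a median of 52.4% over all windows. The last 43 bases of the Ugcg window lie inside the annotated gene and are not printed. Alox12b (chr11:69157072-69169791) and Aloxe3 (chr11:69125417-69149115) lie next to each other, 7957 bases apart. Abca12 (chr1:71243090-71414910), Elovl4 (chr9:83778692-83806305), Ugcg (chr4:59189507-59222833) and Smpd1 (chr7:105554360-105558389) lie on other chromosomes.

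Cell type markers differed between the layers in part, and how far this reflects the separation itself was not tested. In wild-type mice all 9 tested markers of granular and cornified keratinocytes were lower in dermis than in epidermis, and 6 of 7 fibroblast markers and 4 of 4 adipocyte markers were higher. Fewer of the other keratinocyte markers differed: 2 of 4 suprabasal and 1 of 6 basal markers were called lower. The log2 differences of the 6 basal markers ran from -1.17 to 0.22. Their summed linear signal ran from 10235 to 12911 in wild-type dermis and from 13685 to 18160 in wild-type epidermis. Granular keratinocyte signal remained in dermis: the summed linear signal of the 10 listed genes ran from 3134 to 4486 in transgenic dermis and from 2552 to 4569 in wild-type dermis, against 15860.2 to 19678 in transgenic epidermis and 10751 to 17359.8 in wild-type epidermis. Fibroblast signal was also present in epidermis, with summed linear signals of 7 genes of 8959 to 12854 in transgenic and 3920.3 to 9027 in wild-type epidermis. In these bulk samples fewer cells of a type and less RNA per cell cannot be told apart. Arrays of a group varied with a median SD of the log2 signal of 0.20 for whole skin, against 0.44 for epidermis and 0.45 for dermis, so smaller differences can be resolved in whole skin. The second wild-type epidermis array stood apart: without it the count of probe sets called in epidermis was 2396 in place of 470.

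Wild-type dermis was set against wild-type epidermis to ask in which layer the genes are expressed. Alox12b, Aloxe3 and Ugcg were lower in dermis, by 4.43 times for Alox12b, 3.05 times for Aloxe3 and 1.80 to 5.36 times for the 2 called Ugcg probe sets. Abca12 and Smpd1 had lower means in dermis that missed the threshold, and Elovl4 had nearly the same signal in both layers. The Smpd1 probe set 1447874_x_at had a mean above the filter value in epidermis alone, so it had to be lower in dermis and was left out of these counts. Of the other 10 probe sets, 4, from 3 genes, were called lower and 0 higher (limma, Benjamini-Hochberg adjusted p under 0.05), where 7.12% of all 31526 probe sets tested were called lower, 8.57% higher and 15.7% in either direction. All 3 dermis arrays lay below all 3 epidermis arrays for 8 of these 10 probe sets, and for 22.6% of all those tested. They lay above for 0 of the 10 and for 17.2% of all. The median log2 difference of the 10 was -1.20, beside -0.16 over all probe sets.

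Alox12b, whose product first oxidises the linoleate of the barrier ceramides, had log2 signals of 5.63, 5.24 and 5.70 in wild-type dermis, against 7.45, 8.55 and 7.01 in wild-type epidermis. The groups did not overlap, and the log2 difference was -2.15 ± 0.38 (SE, n = 3 each; limma adjusted p = 0.00209). Aloxe3, which acts on the product of Alox12b, had log2 signals of 5.62, 4.83 and 5.55 in wild-type dermis, against 6.54, 7.45 and 6.84 in wild-type epidermis. It was lower in dermis, with a log2 difference of -1.61 ± 0.41 (SE; limma adjusted p = 0.0173). Without the second wild-type epidermis array this p was 0.0525, and without the second wild-type dermis array it was 0.0714. Both genes were thus lower in dermis in every array.

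Ugcg, the glucosylceramide synthase, is read by 4 probe sets, and each had a lower mean in wild-type dermis. The probe set with the highest signal, 1435133_at, had log2 signals of 8.27, 7.80 and 8.47 in wild-type dermis, against 9.10, 9.15 and 8.84 in wild-type epidermis. Its log2 difference was -0.85 ± 0.26 (limma adjusted p = 0.0407), a call that 9 of the 12 fits without 1 array did not make, with log2 differences of -0.99 to -0.66. A second probe set, 1421269_at, showed a wider gap, with log2 signals of 6.03, 5.72 and 5.46 in wild-type dermis, against 8.07, 8.15 and 8.25 in wild-type epidermis. Its log2 difference was -2.42 ± 0.25 (limma adjusted p = 9.51e-05), and all 12 fits without 1 array called it. The other probe sets, 1421268_at and 1439863_at, gave log2 differences of -1.34 ± 0.45 and -1.07 ± 0.59 (limma adjusted p = 0.0563 and 0.229). The probe sets of this 1 gene therefore placed the layer difference anywhere between 1.80 and 5.36 times.

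Abca12, the lamellar granule transporter, had log2 signals of 3.80, 3.08 and 3.01 in wild-type dermis, against 5.53, 6.23 and 5.82 in wild-type epidermis. The arrays did not overlap, and the log2 difference was -2.56 ± 0.89 (limma adjusted p = 0.065). The dermis signals lay around the filter value of 3.15, where this scale spreads widely. Smpd1, the acid sphingomyelinase, had log2 signals of 7.14, 7.77 and 7.66 in wild-type dermis, against 7.84, 8.63 and 8.18 in wild-type epidermis for its stronger probe set. The log2 difference was -0.69 ± 0.44 (limma adjusted p = 0.289). The dimmer 1447874_x_at, whose suffix marks possible cross-hybridisation, averaged 3.13 in wild-type dermis and 5.15 in wild-type epidermis on the log2 scale.

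Elovl4, the elongase of very long fatty acids, was the 1 gene of the 6 whose lead probe set had no lower mean in wild-type dermis. Whether Elovl4 differed in this from the other members was not tested. Its stronger probe set had log2 signals of 11.82, 11.45 and 11.37 in wild-type dermis, against 11.08, 11.62 and 11.79 in wild-type epidermis. The arrays overlapped, and the log2 difference was 0.05 ± 0.30 with a 95% confidence interval of -0.59 to 0.69 (limma adjusted p = 0.924). The other probe set gave -0.24 ± 0.31 with an interval of -0.90 to 0.43 (limma adjusted p = 0.627), and here every dermis array lay below every epidermis array. Sebaceous gland markers, from a cell type rich in lipid, were called higher in wild-type dermis for 2 of 5 tested genes, Mgst1 and Pparg. The log2 differences of the 5 ran from -0.49 to 3.02. Their summed linear signal ran from 6227 to 8374 in wild-type dermis and from 4580.2 to 6286 in wild-type epidermis. In either layer 0 of the 5 lay below the filter value. Adipocyte markers were called higher in wild-type dermis for 4 of 4. The part of either list in the Elovl4 signal was not tested.

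**Figure D1:**
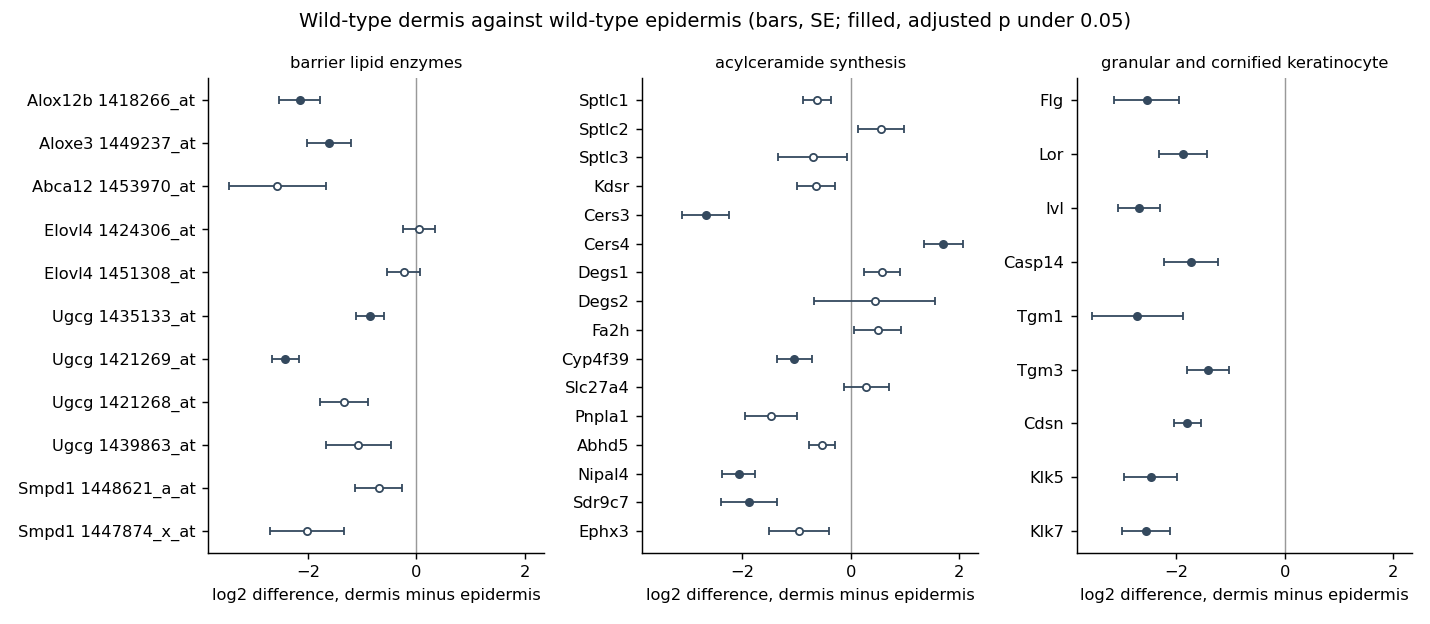
Log2 difference of wild-type dermis minus wild-type epidermis (x axis) for the member probe sets, the acylceramide genes and the granular keratinocyte markers, with bars for the SE and filled points for an adjusted p under 0.05. Alox12b at -2.15 and Aloxe3 at -1.61 lie with the granular markers left of 0, while both Elovl4 probe sets lie near 0.

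In transgenic mice the layers differed in the same direction, given here without a test. The log2 difference of transgenic dermis minus transgenic epidermis was -4.22 for Alox12b, -2.24 for Aloxe3 and -4.40 for Abca12. It ran from -1.93 to -0.87 over the 4 Ugcg probe sets. For the lead Smpd1 probe set it was -1.81, with 1 low transgenic dermis array (5.82, against 8.02 and 7.15). The other Smpd1 probe set, 1447874_x_at, gave -2.07, but it had to be lower in dermis, as said above. Elovl4 gave 0.26 and -0.32.

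The order of the 6 groups followed the same lines. Alox12b was highest in transgenic epidermis, at a mean log2 signal of 8.54 ± 0.26 (SD, n = 3), followed by transgenic whole skin (8.08 ± 0.07), wild-type whole skin (7.91 ± 0.27), wild-type epidermis (7.67 ± 0.79), wild-type dermis (5.52 ± 0.25) and transgenic dermis (4.32 ± 0.38). In this order transgenic whole skin overlapped wild-type whole skin, which overlapped wild-type epidermis, and the other neighbours did not overlap. The lead probe sets of Aloxe3, Ugcg and Smpd1 also had their highest mean in transgenic epidermis, but each overlapped the next group. Those of Aloxe3, Abca12 and Smpd1, like Alox12b, had their lowest mean in transgenic dermis. For these genes other than Alox12b, transgenic dermis overlapped wild-type dermis. Elovl4 had its 6 group means between 11.18 and 11.70 on the log2 scale. The lowest of them, wild-type whole skin, did not overlap the next, transgenic whole skin.

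**Figure D2:**
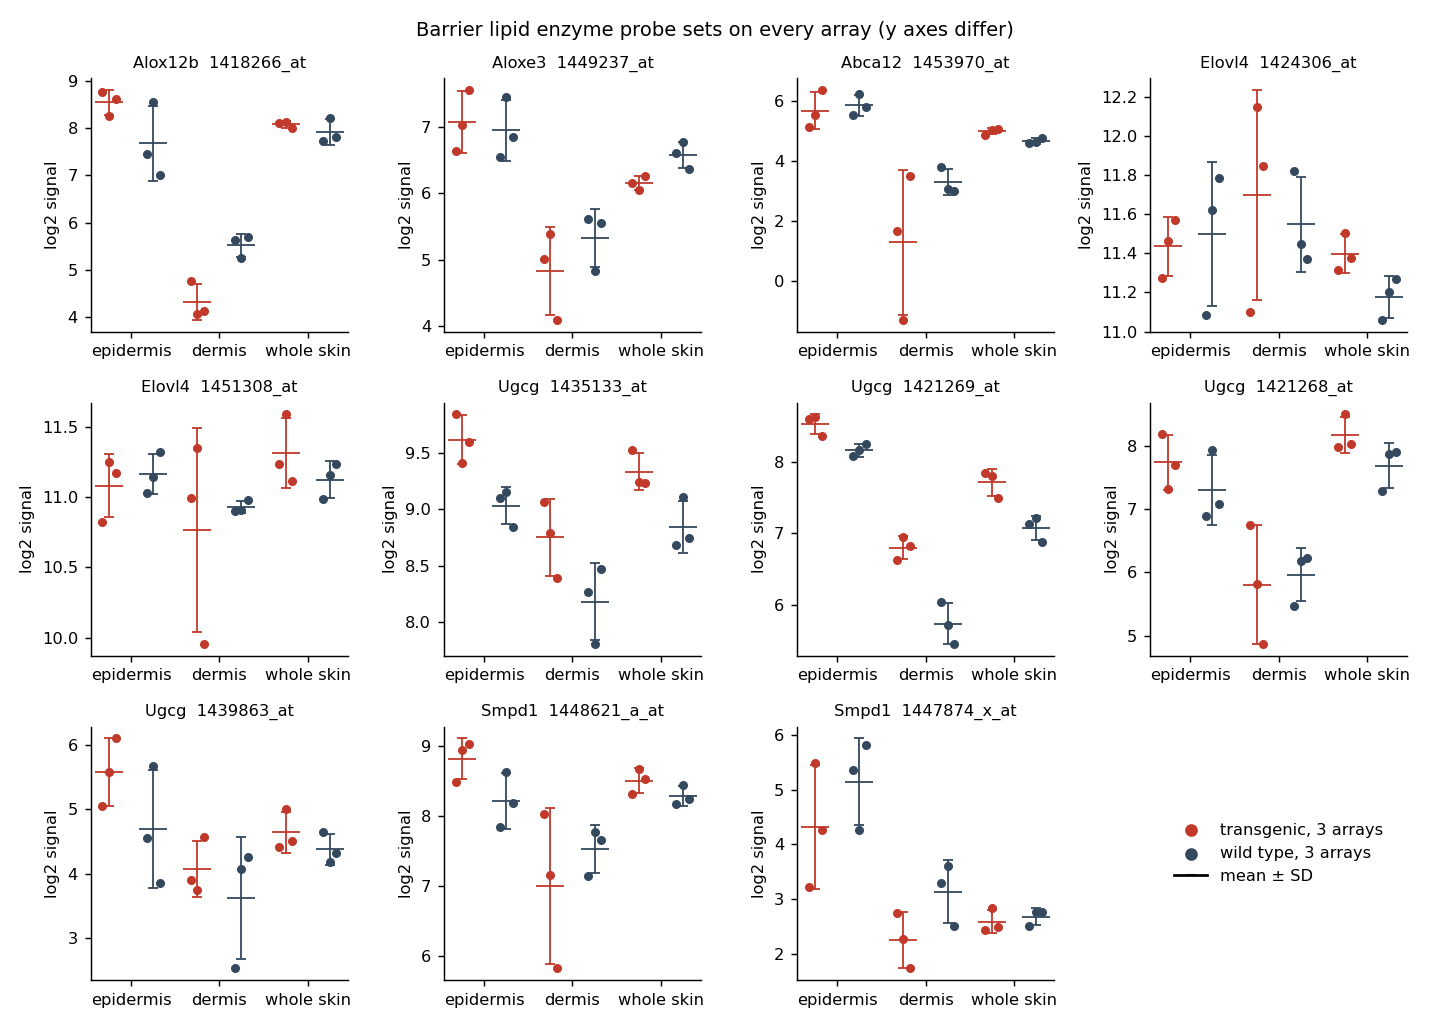
Log2 signal (y axes, which differ between panels) of each member probe set on every array, by tissue and genotype, with transgenic arrays to the left of wild-type arrays and bars for the mean ± SD of 3 arrays. Both lipoxygenases, Abca12, Ugcg and the lead Smpd1 probe set have their lowest means in dermis. Smpd1 1447874_x_at averages 3.13 in wild-type dermis, above 2.59 in transgenic and 2.68 in wild-type whole skin. The first Elovl4 probe set stays between 11.06 and 12.14 on all 18 arrays.

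The genotype comparison in epidermis asks whether Notch activity in keratinocytes moved these genes in the layer that carries the transgene. None of the 11 probe sets was called, against 1.49% of all probe sets (0.923% higher and 0.568% lower). At an unadjusted p under 0.05 there were 2 higher and 0 lower, and 17.9% of all probe sets were under that value. The members' median log2 difference was 0.36, beside -0.20 over all probe sets.

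Alox12b had log2 signals of 8.76, 8.25 and 8.61 in transgenic epidermis, against 7.45, 8.55 and 7.01 in wild-type epidermis. A single wild-type array overlapped the transgenic ones, and the log2 difference was 0.87 ± 0.37 (SE; limma adjusted p = 0.253). Without that array, the second of wild-type epidermis, it was 1.31 (limma adjusted p = 0.0205), and the other fits without 1 array did not call it. Aloxe3 gave log2 signals of 6.63, 7.03 and 7.55 in transgenic epidermis, against 6.54, 7.45 and 6.84 in wild-type epidermis. These overlapped throughout, with a log2 difference of 0.13 and a 95% confidence interval of -0.63 to 0.88.

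Ugcg had log2 signals of 9.84, 9.41 and 9.60 in transgenic epidermis, against 9.10, 9.15 and 8.84 in wild-type epidermis for its lead probe set. All transgenic arrays were higher, by 0.58 ± 0.23 on the log2 scale, but the limma adjusted p was 0.233. For 1421269_at the log2 signals were 8.59, 8.62 and 8.36 in transgenic epidermis, against 8.07, 8.15 and 8.25 in wild-type epidermis, again with no overlap and not called (limma adjusted p = 0.421). Arrays without overlap and with the transgenic ones above were seen for these 2 of the 11 probe sets and for 8.27% of all probe sets. The reverse was seen for 0 of the 11 and for 14.7% of all.

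The remaining members overlapped between genotypes in epidermis. Abca12 had log2 signals of 5.15, 5.54 and 6.38 in transgenic epidermis, against 5.53, 6.23 and 5.82 in wild-type epidermis. Smpd1 had log2 signals of 8.48, 8.93 and 9.03 in transgenic epidermis, against 7.84, 8.63 and 8.18 in wild-type epidermis, with a log2 difference of 0.60 ± 0.28 (limma adjusted p = 0.287). Elovl4 had log2 signals of 11.27, 11.46 and 11.57 in transgenic epidermis, against 11.08, 11.62 and 11.79 in wild-type epidermis. Its 95% confidence interval of -0.62 to 0.50 covers changes in either direction.

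Keratinocyte markers and those of other cells were measured beside them. Flg, the filaggrin gene, and Casp14, a protease that processes filaggrin, were called higher in transgenic epidermis (2 of 9 tested markers), by 2.90 ± 0.22 and 2.54 ± 0.28 on the log2 scale (limma adjusted p = 4.55e-04 and 0.00166). Of the other 7 tested markers, Ivl, Tgm1, Klk5 and Klk7 had higher signals in all 3 transgenic arrays and Tgm3 lower ones, none of them called, and Lor gave -0.72 ± 0.32. The summed signal of that list overlapped between genotypes. Basal keratinocyte markers had lower sums, from 9417 to 10093 in transgenic epidermis and from 13685 to 18160.0 in wild-type epidermis, and Krt15 and Col17a1 (2 of 6) fell by 3.66 ± 0.36 and 1.19 ± 0.24 on the log2 scale. Among 7 fibroblast markers Pdgfrb was called higher, by 2.48 ± 0.33. Fos and Dusp1, 2 of 6 genes switched on early by stress or handling, were also called higher, and the summed linear signal of the 6 ran from 4293 to 4647 in transgenic epidermis and from 2321 to 3135 in wild-type epidermis. Their part in the member values was not tested.

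The dermis comparison asks about the separated dermis, whose samples were not free of basal keratinocyte signal. The summed linear signal of the 6 basal markers ran from 8048 to 8709 in transgenic dermis and from 10235 to 12911 in wild-type dermis. Whether cells expressing the transgene were among them was not tested. None of the 11 probe sets was called, against 0.0222% of all probe sets, all of them higher. At an unadjusted p under 0.05 there were 1 higher and 1 lower, and 3.91% of all probe sets were under that value. Alox12b had log2 signals of 4.77, 4.06 and 4.14 in transgenic dermis, against 5.63, 5.24 and 5.70 in wild-type dermis. Every transgenic array was lower, the log2 difference was -1.20 ± 0.42, and the limma adjusted p was 0.99. The Ugcg probe set 1421269_at went the other way, with log2 signals of 6.62, 6.94 and 6.83 in transgenic dermis, against 6.03, 5.72 and 5.46 in wild-type dermis. Its log2 difference was 1.06 ± 0.32 (limma adjusted p = 0.99). In a fit that takes the spread from all 18 arrays the same difference was called, with a limma adjusted p of 0.0424. That fit includes the whole-skin arrays, which varied less, and the SE of this difference was 0.20 there. It called 56 of all 31526 probe sets. The other Ugcg probe sets gave log2 differences of 0.57, -0.16 and 0.44 in dermis, none of them called. Arrays without overlap were seen for 1 of 11 members above and 1 below, and for 3.09% and 6.04% of all probe sets.

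No other lead probe set was free of overlap in dermis. Abca12 had log2 signals of 1.67, -1.31 and 3.51 in transgenic dermis, against 3.80, 3.08 and 3.01 in wild-type dermis. Its difference of -2.01 ± 1.25 rests on dim signals, with a 95% confidence interval of -4.80 to 0.78. Smpd1 had log2 signals of 8.02, 7.15 and 5.82 in transgenic dermis, against 7.14, 7.77 and 7.66 in wild-type dermis, and its 1 low array sets the mean: without that array, the third, the log2 difference was 0.0657 in place of -0.52. Aloxe3 had log2 signals of 5.02, 5.39 and 4.09 in transgenic dermis, against 5.62, 4.83 and 5.55 in wild-type dermis. Elovl4 had log2 signals of 11.10, 12.14 and 11.84 in transgenic dermis, against 11.82, 11.45 and 11.37 in wild-type dermis. The lead Ugcg probe set had log2 signals of 9.07, 8.79 and 8.39 in transgenic dermis, against 8.27, 7.80 and 8.47 in wild-type dermis.

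Hair follicle genes moved strongly in the same tissue. All 4 inner root sheath markers were called higher in transgenic dermis, Krt25 among them at a mean log2 signal of 10.10 ± 0.39 in transgenic dermis and 1.65 ± 0.32 in wild-type dermis (SD, n = 3 each). The summed linear signal of the 4 ran from 1879 to 3640.1 in transgenic dermis and from 37.9 to 67.1 in wild-type dermis, where 3 of the 4 had a mean below the filter value. Their part in the member values was not tested. Granular markers, 0 of 9 called, had overlapping sums in the 2 genotypes of dermis.

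In whole skin, the tissue with the smallest spread, Ugcg came nearest to a call. None of the 11 probe sets was called, against 1.56% of all probe sets (0.91% higher and 0.653% lower). At an unadjusted p under 0.05 there were 4 higher and 1 lower, and 15.5% of all probe sets were under that value. The 3 transgenic arrays lay above all wild-type arrays for 5 of the 11 probe sets and below them for 1, and for 9.66% and 12.1% of all probe sets. The members' median log2 difference was 0.22, beside -0.02 over all probe sets.

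The lead Ugcg probe set had log2 signals of 9.52, 9.24 and 9.23 in transgenic whole skin, against 8.68, 9.11 and 8.74 in wild-type whole skin. No array overlapped, and the log2 difference was 0.49 ± 0.13 (limma adjusted p = 0.116). For 1421269_at the log2 signals were 7.84, 7.80 and 7.50 in transgenic whole skin, against 7.13, 7.21 and 6.88 in wild-type whole skin, a log2 difference of 0.64 ± 0.14 (limma adjusted p = 0.0639). This is 1.56 times, and the limma adjusted p in the 6 fits without 1 array ran from 0.0463, without the third transgenic array, to 0.209. For the lead probe set it ran from 0.0499, without the second wild-type array, to 0.321, so each was called in 1 of 6. The probe set 1421268_at also had its transgenic arrays above the wild-type ones, by 0.49 ± 0.20 (limma adjusted p = 0.27), and 1439863_at overlapped.

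Aloxe3 was the 1 gene whose lead probe set had lower signals in transgenic whole skin, at 6.16, 6.06 and 6.26 on the log2 scale in transgenic whole skin, against 6.60, 6.76 and 6.36 in wild-type whole skin. No array overlapped, and the log2 difference was -0.42 ± 0.15 (limma adjusted p = 0.222). Its neighbour Alox12b had log2 signals of 8.10, 8.13 and 8.00 in transgenic whole skin, against 7.72, 8.22 and 7.80 in wild-type whole skin. These overlapped, with a log2 difference of 0.16 and a 95% confidence interval of -0.15 to 0.48.

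Elovl4 showed a small gap in whole skin, with log2 signals of 11.31, 11.51 and 11.38 in transgenic whole skin, against 11.06, 11.20 and 11.27 in wild-type whole skin. The log2 difference was 0.22 ± 0.08 (limma adjusted p = 0.221). Abca12 had log2 signals of 4.88, 5.03 and 5.07 in transgenic whole skin, against 4.60, 4.66 and 4.77 in wild-type whole skin, with no overlap and an adjusted p of 0.448 (limma). Smpd1 had log2 signals of 8.31, 8.67 and 8.53 in transgenic whole skin, against 8.17, 8.43 and 8.24 in wild-type whole skin. Of the granular markers, Flg, Ivl and Casp14 were called higher in the same arrays (3 of 9 tested, with log2 differences over the 9 of -0.19 to 2.48), and the list's summed linear signal ran from 7244 to 9720.1 in transgenic and from 4659 to 6007 in wild-type whole skin. Early stress genes were called higher for 5 of 6. The part of either list in the member values was not tested.

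**Figure D3:**
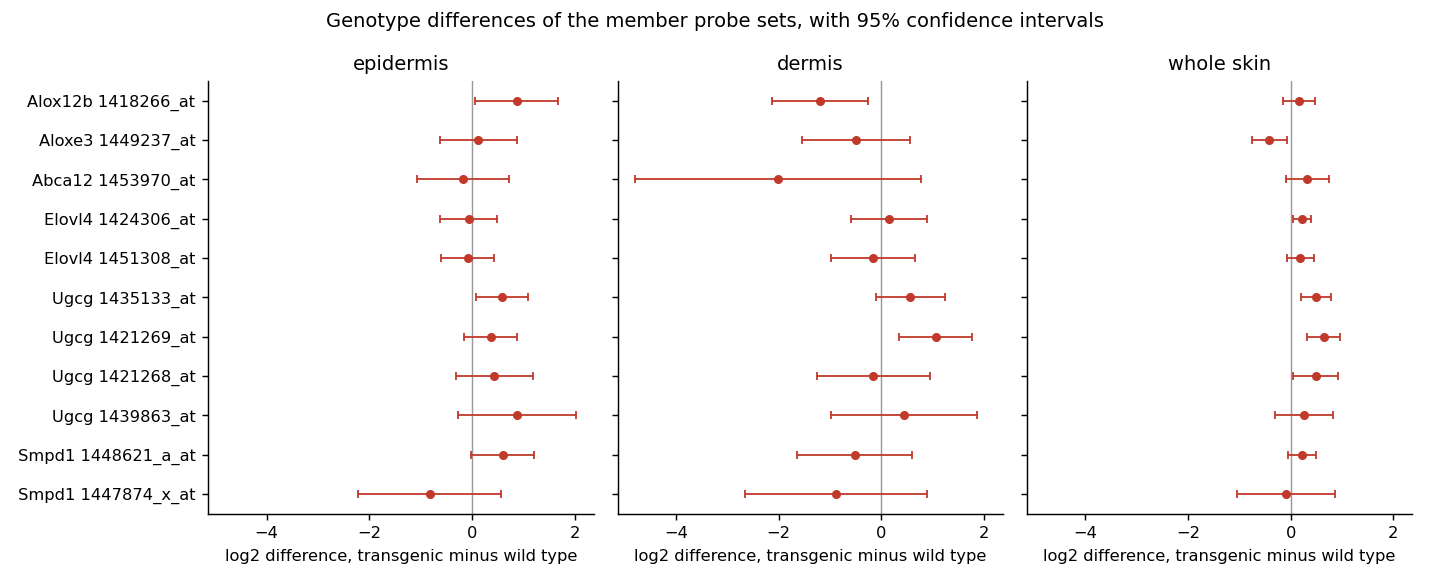
Log2 difference, transgenic minus wild type (x axis), of each member probe set in epidermis, dermis and whole skin, with bars for the 95% confidence interval. Intervals are narrowest in whole skin, where Ugcg lies right of 0 and Aloxe3 left of it at -0.42, and no probe set in any panel had an adjusted p under 0.05.

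The dimmer or secondary probe sets added little. Over the 3 tissues the log2 genotype difference ran from -0.16 to 0.19 for Elovl4 1451308_at, from -0.16 to 0.49 for Ugcg 1421268_at and from 0.26 to 0.88 for Ugcg 1439863_at. For Smpd1 1447874_x_at the epidermis, dermis and whole-skin values were -0.82, -0.88 and -0.09, and its whole-skin log2 signals of 2.44 to 2.83 lay below the filter value on all 6 arrays. Of these 4 probe sets in 3 tissues, only 1421268_at in whole skin had arrays without overlap between genotypes.

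Whether the genotype difference itself depended on the tissue was tested directly. None of the 11 probe sets was called for dermis minus epidermis, where 0% of all probe sets were (limma). At an unadjusted p under 0.05 there was 1 member, Alox12b, beside 7.40% of all probe sets. Its log2 genotype difference in dermis minus that in epidermis was -2.07 ± 0.54 (SE; limma adjusted p = 0.471). The lead Ugcg probe set gave -0.02 ± 0.37, from log2 differences of 0.57 in dermis and 0.58 in epidermis, with a 95% confidence interval of -0.81 to 0.77. For whole skin minus epidermis none of the 11 was called either, against 0.0222% of all probe sets (0.0159% higher and 0.00634% lower). No member was under an unadjusted p of 0.05 there, beside 11.4% of all probe sets. These contrasts share the epidermis arrays, and the Alox12b value in both rests in part on the same wild-type arrays.

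Other genes of the same pathways were read from 6 lists, each gene represented by its brightest probe set. In epidermis, where 2.09% of all genes were called by that probe set, 1 of the 16 acylceramide genes was called higher and 0 lower. It was Degs2, a desaturase and hydroxylase that makes phytoceramides. Its log2 signals were 7.15, 7.84 and 7.59 in transgenic epidermis, against 3.06, 4.56 and 1.03 in wild-type epidermis. The log2 difference was 4.65 ± 0.72 (limma adjusted p = 0.0114), and the adjusted p was 0.0565 and 0.0642 without the first or the second transgenic array and 0.0989 without the trend in the prior. In wild-type epidermis the gene lay near or below the filter value, so the size of this fold is imprecise, and with 16 added to the linear signal the log2 difference was 2.96. In whole skin Degs2 gave 2.16 ± 0.51 (limma adjusted p = 0.0797).

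On the list of 6 other lipoxygenase genes, which includes the activating protein Alox5ap, Alox12, the platelet-type enzyme, was called lower and 0 were called higher in epidermis. Alox12 had log2 signals of 5.11, 6.27 and 5.44 in transgenic epidermis, against 7.30, 7.77 and 7.49 in wild-type epidermis. It fell by 1.91 ± 0.36 on the log2 scale (limma adjusted p = 0.0249). In whole skin its log2 signals were 5.56, 4.93 and 5.41 in transgenic mice, against 6.62, 7.21 and 6.80 in wild-type mice, and it fell by 1.58 ± 0.21 (limma adjusted p = 0.00957). Neither barrier lipoxygenase was called in either tissue, and whether their differences were unlike that of Alox12 was not tested.

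Among the 8 tested relatives of Abca12, the ABC class A transporters, Abca5 was called lower in epidermis and in whole skin and 0 were called higher. It had log2 signals of 7.68, 6.52 and 7.59 in transgenic epidermis, against 8.71, 9.07 and 9.22 in wild-type epidermis, and fell by 1.74 ± 0.33 on the log2 scale (limma adjusted p = 0.0272). In whole skin it fell by 1.25 ± 0.12 (limma adjusted p = 0.0023), at 7.31, 7.20 and 7.55 on the log2 scale in transgenic mice and 8.70, 8.60 and 8.51 in wild-type mice. The epidermis calls of Alox12 and Abca5 were each lost in fits without 1 array: for Alox12 without the first transgenic, the third transgenic or the third wild-type array (adjusted p = 0.082 to 0.126), and for Abca5 without any 1 of the transgenic arrays or the third wild-type array (0.0547 to 0.15). Both epidermis calls were also lost with the replicate block (0.0523 and 0.0643) and without the trend in the prior (0.123 and 0.151). Their whole-skin calls held without any 1 array but were lost in the fit over all 18 arrays (adjusted p = 0.321 for Alox12 and 0.364 for Abca5), that of Alox12 also without the trend (0.0814).

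Whole skin gave 3 further calls among lipid genes, where 2.37% of all genes were called. Elovl3, an elongase of the hair follicle and sebaceous gland in mice, was higher by 0.88 ± 0.17 on the log2 scale (limma adjusted p = 0.0448; 1 of 5 tested elongases), a call that 5 of 6 fits without 1 array did not make. Fdft1, which makes squalene, and Cyp51, a demethylase of sterol synthesis, were higher by 0.56 ± 0.09 and 0.58 ± 0.08 (limma adjusted p = 0.0168 and 0.0113; 2 of 11 cholesterol genes). Fdft1 is read here by a probe set whose suffix marks possible cross-hybridisation, and both calls were lost without the second transgenic array (limma adjusted p = 0.0706 and 0.0528), that of Fdft1 also without the first wild-type array (0.0781). In the fit over all 18 arrays and in the fit without the trend, Elovl3, Fdft1 and Cyp51 were not called, and Elovl3 was called in 4 of the 8 settings other than leaving out an array. The list of 12 ceramide processing and lamellar granule genes had 0 calls in every genotype comparison (limma). In dermis 0 genes of the 6 lists were called, beside 0.0509% of all genes, and at an unadjusted p under 0.05 there was 1 lower, Abca5, at -1.29 ± 0.41. Just short of the threshold in whole skin was Elovl6, at 0.62 ± 0.13 (limma adjusted p = 0.0577). The median log2 difference of the 16 acylceramide genes was 0.30 in epidermis and 0.21 in whole skin, beside -0.10 and -0.01 over all genes.

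**Figure D4:**
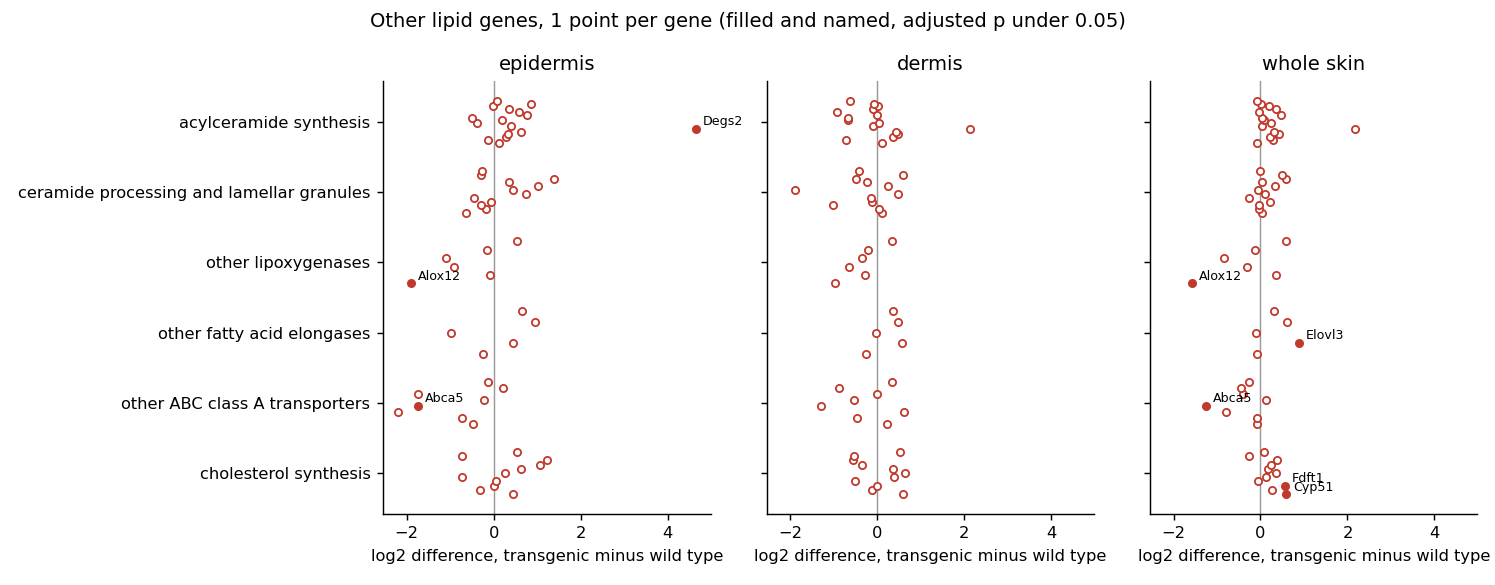
Log2 difference, transgenic minus wild type (x axis), of the genes in the 6 lipid lists, 1 point per gene, by tissue, with genes of an adjusted p under 0.05 filled and named. Degs2 lies at 4.65 in epidermis and Alox12 and Abca5 lie left of 0 in epidermis and whole skin, while most genes cluster around 0.

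Between the wild-type layers the acylceramide genes split. Cers3, the ceramide synthase for ultra-long chains, Nipal4, a gene mutated in a human ichthyosis, Sdr9c7, which oxidises the products of the barrier lipoxygenases, and Cyp4f39, which hydroxylates the long fatty acids, were lower in dermis (4 of 16). Cers3 fell by 2.68 ± 0.43 and Nipal4 by 2.06 ± 0.31 on the log2 scale (limma adjusted p = 0.00118 and 6.91e-04). Cers4, another ceramide synthase, was higher in dermis by 1.71 ± 0.36 (1 of 16; limma adjusted p = 0.00644). The Elovl4 relatives also differed: Elovl1 fell by 1.82 ± 0.26 and Elovl6 was higher by 1.42 ± 0.45 (limma adjusted p = 5.67e-04 and 0.0439), and the other 3 tested elongases were not called. The calls of Cers3, Nipal4, Cers4 and Elovl1 were made in all 12 fits without 1 array, that of Sdr9c7 in 8 and those of Cyp4f39, Elovl6 and Abca5 in 6. Pla2g2f, a secreted phospholipase, fell by 2.57 in dermis and Sgms2, a sphingomyelin synthase, was higher by 2.29 (1 of 12 ceramide processing genes each way; limma adjusted p = 0.00145 and 0.00174). Alox12 fell by 2.25 in dermis (limma adjusted p = 0.00651) and Alox5ap, which presents arachidonate to another lipoxygenase, was higher by 1.20 (1 of 6 each way). Of 11 cholesterol genes Fdps, Dhcr7 and Srebf2 were called lower and Insig1 higher. Of these calls, those of Pla2g2f, Sgms2, Alox12 and Dhcr7 were made in all 12 fits without 1 array, those of Alox5ap, Fdps and Insig1 in 8 and that of Srebf2 in 7. Of the transporters, Abca1, which exports cholesterol, Abca8a, Abca8b and Abca9 were higher in dermis and Abca5 lower. Of all genes, 12.1% were called higher and 5.66% lower in dermis by their lead probe set.

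The genes most like each member over the 18 arrays were found by Pearson correlation of log2 signals among 13733 other genes. The arrays come from 6 groups, so these values mostly restate differences between tissues, and they are given as a description. Alox12b was closest to Rhbdl2 (r = 0.96), Prrg4 and Tmprss4 (both 0.96), and Aloxe3 to Pcf11, 5430427M07Rik and Ubl3 (each 0.95). Abca12 was closest to Dusp14 (0.93), Clic3 (0.92) and Clca2 (0.91). Elovl4 had looser partners, Gpam, an acyltransferase of glycerolipid synthesis (0.87), Tnks2 (0.86) and Mybpc3 (0.86). Ugcg was closest to Mrpl18 (0.92), Dnase1l3 (0.92) and Flg (0.91), and Smpd1 to Npepps (0.98), Eif1ad (0.96) and Pmm2 (0.95). No gene was among the 3 nearest of more than 1 member.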

How the data were processed

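RNA was amplified with a kit for small amounts of RNA and labelled with biotin, per the labels' protocols. The authors deposited 1 table of log2 values made with MAS5, per the submitters' processing notes, with a version not given in the sources used here. MAS5 subtracts mismatch from perfect-match signals and scales each array to a common mean. The log2 scale was read from the values, which ran from -7.52 to 14.42: set back with base 2, every array had a trimmed mean of 98.9 to 99.5, leaving out 2% at each end. Between 2.81% and 9.36% of an array's values lay below 0, so folds of dim probe sets are imprecise. No detection calls were used. None of the 153 array pairs was identical.

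Gene names came from GEO's platform annotation (34945 probe sets with 1 symbol, 932 with several, 9160 unnamed here). Values were used as deposited, and the number of arrays limits the precision. Probe sets with a mean above the 30th percentile were fitted in limma 3.58.1 (R 4.3.3) with a mean per group and a prior on the spread that follows expression, over the 6 arrays of a tissue or the 12 of both tissues. P-values were adjusted over the 31526 probe sets tested by the Benjamini-Hochberg method, with a threshold of 0.05. The fit was tested on simulated data.

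The members and lists were chosen with earlier results of these data known. Named were all member probe sets, each gene led by its brightest, the called genes of 6 lipid lists with up to 4 more of smallest adjusted p per tissue, and the 3 genes most correlated with each member. Listed genes not named under a single symbol (9 over all lists) were not analysed here. Replicate numbers were not taken to pair the samples: same-numbered arrays of the 2 genotypes deviated with correlations of -0.33 to 0.07. Between tissues, all 3 correlations were over 0.1 for transgenic whole skin and epidermis (0.17 to 0.22) and 2 of 3 for transgenic dermis and epidermis (0.003 to 0.40), but 0 of 6 in wild type (-0.04 to 0.09). The 9 alternatives tried are given in the closing section, and applying them to the called genes of the lists and to Krt15 was decided after seeing the data.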

Additional observations from a re-analysis of the deposited data

Results flagged for a closer look

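Krt15, a keratin of basal and hair follicle keratinocytes, had a genotype difference that itself differed between tissues: in whole skin minus epidermis it was 3.50 ± 0.43 on the log2 scale (SE; limma adjusted p = 0.0417). The call was made in 5 of the 12 fits without 1 array, and was lost without the third wild-type epidermis array and without each of the 6 whole-skin arrays, with log2 differences of 3.03 to 3.85 and adjusted p up to 0.203 over the 12. It was also lost without the trend in the prior (0.0819). Its mean log2 signal was 7.97 ± 0.84 in transgenic and 11.63 ± 0.09 in wild-type epidermis, against 11.41 ± 0.11 in transgenic and 11.57 ± 0.23 in wild-type whole skin (SD, n = 3 each).

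Krt14, the keratin whose promoter drives the transgene, lay lower in all 3 transgenic than in all 3 wild-type dermis arrays and higher in all 3 transgenic than in all 3 wild-type whole-skin arrays. Its mean log2 signals were 11.13 ± 0.11 and 11.45 ± 0.06 in transgenic and wild-type dermis, and 11.55 ± 0.16 and 11.27 ± 0.12 in transgenic and wild-type whole skin (SD, n = 3 each). The genotype difference in dermis minus that in whole skin was -0.60, and this difference was not tested. None of the 11 member probe sets met either condition.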

How the results depend on the processing

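Of 612 recomputed differences of the lead member probe sets, 563 kept direction and call, 14 lost a call, 8 gained one and 27 changed sign. The cause was not tested. Most of the 563 were differences without a call that stayed so. Lead probe sets were called only between the layers, for 3 genes, so a call could be lost only there. Of the 14 lost calls, of Ugcg and Aloxe3, 11 came without 1 array and 3 under other settings. With all 18 arrays in 1 fit the number of member probe sets called was 1 in dermis (Ugcg 1421269_at) and 7 between the layers. With each array moved to a common 75th percentile it was 1 in whole skin, and with 16 added on the linear scale it was 7 between the layers. Without 1 array it ranged from 0 to 1 in epidermis, in whole skin and for whole skin minus epidermis, and from 2 (without the second wild-type dermis array) to 7 (without the third transgenic dermis array) between the layers. The second wild-type epidermis array decided the single calls in epidermis and in whole skin minus epidermis, both of Alox12b. Without it, 2396 of all 31526 probe sets were called in epidermis and 1588 in whole skin minus epidermis, against 470 and 7 with it. Over all probe sets, 562 were called in whole skin with the percentile shift and 6091 between the layers with 16 added. The layer counts here include Smpd1 1447874_x_at, left out above because it had to be lower in dermis. It was called in each of the settings named here that gave 7. The layer call of the lead Ugcg probe set was lost with the percentile shift, without the filter and without the trend (limma adjusted p = 0.0515, 0.0542 and 0.0796). Abca12 gained one over all arrays, with 16 added and with the replicate block (0.0194, 0.00254 and 0.0335). The block gave 6 member calls between the layers and 0 in each genotype comparison and difference between tissues. Over all 31526 probe sets the block called 5774 between the layers. With 1 probe set per gene, 3 of the 6 lead probe sets were called between the layers and 0 elsewhere, and the number called over all genes was 2559 between the layers and 3 for dermis minus epidermis.

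Sign changes, none in a called difference, came under quantile normalization for Abca12 (0.132) and Elovl4 (0.00723) in epidermis, Elovl4 in dermis (-0.0212), Elovl4 (-0.0284) and Ugcg (0.157) in dermis minus epidermis and Ugcg in whole skin minus epidermis (0.0921), and under the percentile shift for Elovl4 in epidermis (0.0514). Without 1 array the log2 difference ran from -0.115 to 0.379 for Aloxe3, from -0.518 to 0.0972 for Abca12 and from -0.269 to 0.0818 for Elovl4 in epidermis, from -0.0749 to 0.447 for Elovl4 and from -1.03 to 0.0657 for Smpd1 in dermis, from -0.0128 to 0.509 for Elovl4 and from -0.205 to 0.162 for Ugcg in dermis minus epidermis, from -0.198 to 0.0382 for Ugcg in whole skin minus epidermis, and from -0.157 to 0.193 for Elovl4 between the layers.

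Over all probe sets the number called in epidermis was 470, against 51 without the trend, 192 with the replicate block, 1811 over all arrays and 88 to 2396 without 1 array; 61.9% of the 470 were higher, against 48.1% over all arrays and 71.4% with the block. In whole skin 493 were called, against 34 over all arrays, 58 without the trend and 138 to 509 without 1 array. In dermis 7 were called, against 56 over all arrays, 2 without the trend and 1 to 36 without 1 array, and between the layers 4947, against 8488 over all arrays and 2303 to 6344 without 1 array. Quantile normalization moved the median log2 difference of all probe sets in epidermis from -0.198 to 0.000569.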
